A study of Mus musculus with 17 samples.

Results

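B cells and CD4 T cells sorted from the spleen of male NOD mice were compared on 6 expression arrays of the 17 in the series. The members were chosen by the sample labels: 3 arrays of splenic B cells and 3 arrays of splenic CD4 T cells, with every difference given as B cells minus CD4 T cells. The other 11 arrays measured B cells (4 arrays), CD4 T cells (4 arrays) and epithelial cells (3 arrays) of the lacrimal gland, the tear gland that becomes inflamed in males of this strain. For both spleen groups the labels name NOD males aged 16 weeks, with no genotype beyond the strain and no treatment, whereas the series' design text gives an age of 4 weeks for the spleen. RNA of every group was amplified before labelling. Sorted B cells were positive for CD45 and B220 and negative for CD3, NKp46, CD11b and CD11c. CD4 T cells were positive for CD45, CD3 and CD4 and negative for B220 and for the same 3 exclusion markers. These gates are described for gland suspensions, and the labels state a purity over 99% after sorting. Whether the 3 arrays of a group represent 3 mice is not stated in the labels. A p-value here reflects scatter within groups pooled over all 17 arrays, those of epithelial cells included. Part or all of that scatter may be technical.

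B and T lymphocytes read antigen with clonal receptors that have no signalling tails of their own. In both lineages the receptor is paired with small chains that carry tyrosine motifs, an Src family kinase phosphorylates these motifs, a Syk family kinase docks on them, and an adaptor then gathers phospholipase C gamma, Tec kinases and exchange factors, which raise calcium and switch on NFAT and NF-kB. B cells also present antigen on MHC class II molecules to CD4 T cells, which answer through costimulatory receptors and cytokines, and the spleen holds follicular and marginal zone B cells beside naive, regulatory and effector CD4 T cells.

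Deposited values were log2 signals that ranged from 0.49 to 12.95 over all 17 arrays, with a median of 4.71, and 17097 genes were tested. A difference was called when limma's moderated test gave a Benjamini-Hochberg adjusted p under 0.05 and the groups differed at least 2-fold. Detection calls are not part of these files, and a fold against a group whose level lies under 4.71 is a ratio of deposited values and may understate the difference. Levels are compared within a gene and not between genes, and in these pooled cells fewer cells of a type and less RNA per cell cannot be told apart.

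Before the comparison, 2 spleen arrays stood apart from the others of their group. B cell replicate 3 had 51 genes at least 1 log2 unit above both other B cell arrays, where the other B cell arrays had 3 and 5. Genes of neutrophils led this set. S100a8, a calcium-binding protein stored by neutrophils, measured 3.59, 3.32 and 9.63 in B cell replicates 1, 2 and 3, and S100a9, its partner, measured 4.98, 4.22 and 9.72. The neutrophil granule genes Ngp (3.34, 3.43 and 7.82) and Camp (3.64, 3.64 and 6.93) followed the same order, and the highest of these 4 genes in any CD4 T cell array was S100a9 at 4.30. CD4 T cell replicate 2 had 25 such genes against 1 and 3 in the other CD4 T cell arrays, led by genes of secretory glands. Dcpp3, a secreted salivary and lacrimal protein, measured 4.39, 10.34 and 4.47 in CD4 T cell replicates 1, 2 and 3, and Mucl1, a mucin-like protein, measured 3.71, 9.48 and 3.61. B cell replicate 1 also had Mucl2 at 9.35 and Scgb1b27 at 8.98, so transcripts of secretory glands were high in an array of each class. The part of these transcripts in the differences below was not tested. Without B cell replicate 3 and CD4 T cell replicate 2, an alternative added after seeing the data, 767 and 746 genes were called in place of 792 and 773, and 92.0% and 91.7% of the original calls were kept.

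**Figure D1:**
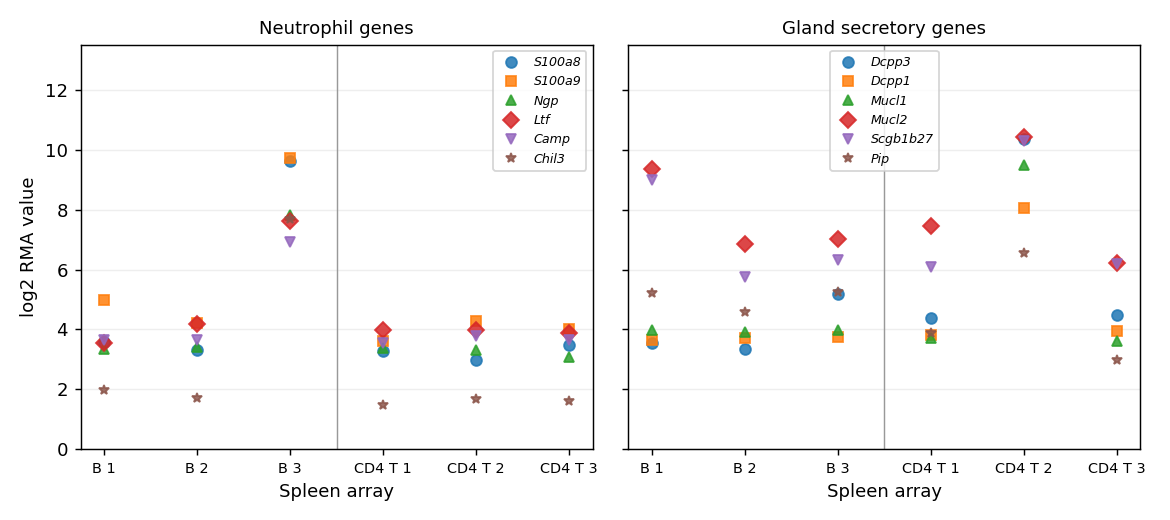
Log2 signal (vertical axis) of 6 neutrophil genes (left) and 6 gland secretory genes (right) in each of the 6 spleen arrays, one symbol per gene. B cell replicate 3 has the highest S100a8 (9.63) and S100a9 (9.72), and CD4 T cell replicate 2 has the highest Dcpp3 (10.34) and Mucl1 (9.48).

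The 2 lymphocyte classes differed widely, and to a similar extent in both directions. B cells had 792 genes higher, which is 4.63% of the genes tested, and CD4 T cells had 773 genes higher, which is 4.52%. Together 1565 of 17097 genes were called (9.15%). Counts of called list members below are read against these shares. The arrays of the 2 groups did not overlap at any called gene, but they also did not overlap at 40% of all genes. The median difference over all genes was 0.002. A difference of at least 16-fold was measured for 132 genes higher in B cells and 81 higher in CD4 T cells, and at least 64-fold for 32 and 19. Pairs of arrays within a group correlated at 0.994 to 0.996 over genes, and pairs across groups at 0.936 to 0.939. In 342 of the B cell calls and 363 of the CD4 T cell calls the lower group lay under the median of all values. Of the 723 called genes read by more than 1 probe set, 437 had another probe set called the same way and 1 had one called the opposite way.

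**Figure D2:**
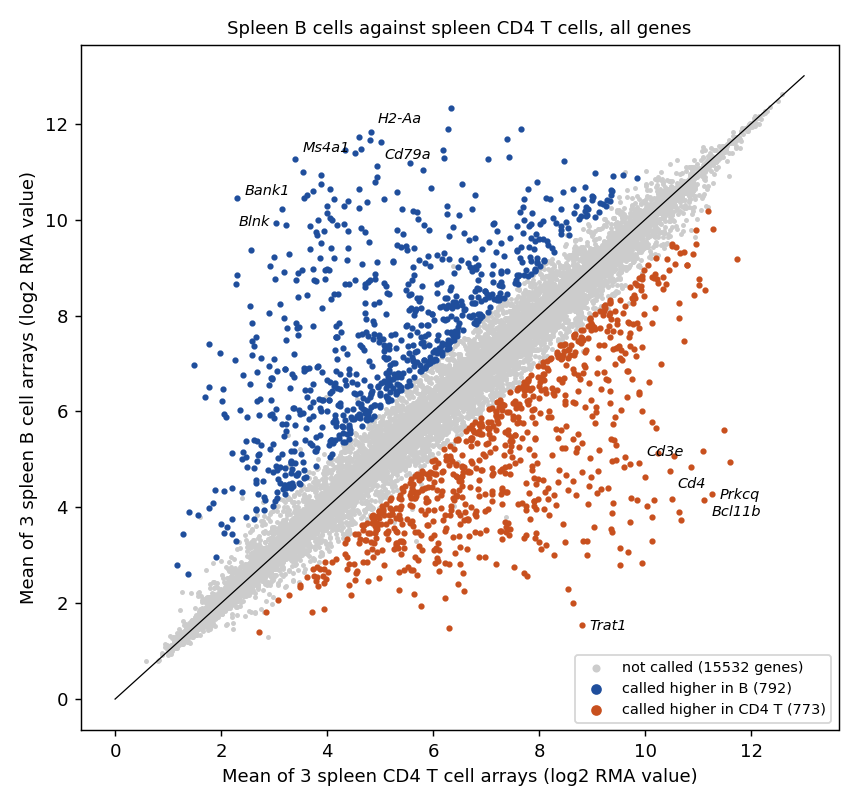
Mean log2 signal of the 3 splenic B cell arrays (vertical) against that of the 3 splenic CD4 T cell arrays (horizontal), one point per gene, with the line of equal signal and a few genes named. The 792 genes called higher in B cells lie above the line, the 773 called higher in CD4 T cells below it, and genes not called are grey.

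Genes of antigen receptor signalling and antigen presentation were among the largest differences on the B cell side. Bank1, a scaffold that links the B cell receptor to calcium release, measured 10.55, 10.38 and 10.40 in the 3 B cell arrays and 2.10, 2.64 and 2.17 in the 3 CD4 T cell arrays. The difference of 8.14 ± 0.28 (adjusted p = 2.44e-12, limma with Benjamini-Hochberg) corresponded to 282-fold, the largest on the B cell side among the genes named here. Ms4a1, which encodes CD20, differed by 7.86 ± 0.42, and Siglecg, an inhibitory sialic acid receptor, by 7.45 ± 0.11. Scd1, a desaturase that makes monounsaturated fatty acids, measured 11.43, 11.44 and 11.51 against 3.78, 4.44 and 4.79. Blnk, the central adaptor of the B cell receptor, Ly86, which pairs with the Toll-like receptor relative CD180, and H2-Aa, an MHC class II alpha chain, differed by 7.07, 7.05 and 7.0. Ctsh, a lysosomal protease, Mef2c, a transcription factor needed for B cell receptor responses, and Serpinb1a, a protease inhibitor, complete the 10 largest when antigen receptor segments and unnamed gene models are left out, with differences of 6.90, 6.90 and 6.89.

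T cell receptor partners led the opposite side. Trat1, a transmembrane adaptor that associates with the T cell receptor, measured 1.64, 1.57 and 1.46 in B cells and 8.65, 8.84 and 8.96 in CD4 T cells, a difference of -7.26 ± 0.14 (adjusted p = 7.15e-15). Cd96, a receptor for nectin-like ligands, differed by -7.11 ± 0.77, and Prkcq, the protein kinase C recruited to the T cell synapse, by -7.0 ± 0.78. Bcl11b, a factor that fixes T lineage identity, differed by -6.97 and Cd3g, a chain of the CD3 complex, by -6.96. Slfn1, a Schlafen family gene of resting T cells, Sh2d1a, which encodes the SLAM adaptor SAP, and Ppm1h, a protein phosphatase, had differences of -6.82, -6.74 and -6.73. Cd3d, another CD3 chain, and F2r, the thrombin receptor, differed by -6.65 and -6.62. At each of these 20 genes the 3 B cell arrays and the 3 CD4 T cell arrays lay apart. Within the B cell group, replicate 3 was the highest array for Cd3g (3.03, 3.53 and 4.62), Cd3d (4.81, 4.35 and 5.70), Slfn1 (2.76, 2.89 and 4.27) and Prkcq (3.94, 3.96 and 4.93).

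**Figure D3:**
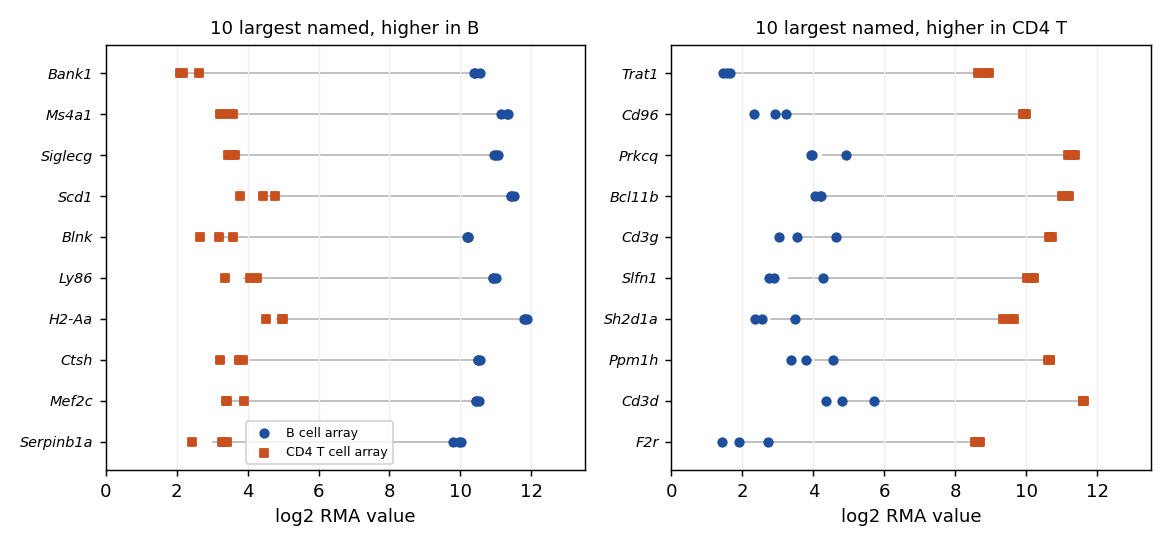
Log2 signal (horizontal axis) in each of the 3 B cell arrays (circles) and 3 CD4 T cell arrays (squares) of spleen for the 10 genes with the largest difference in each direction, antigen receptor segments and unnamed gene models left out, with a grey line between the group means. The groups do not overlap at any of the 20 genes, from Bank1 (difference 8.14) to Trat1 (difference -7.26).

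Promoters are shown for 4 genes of these programmes, 1 signalling adaptor and 1 receptor-associated gene of each lineage, because each holds a textbook lymphocyte motif. Vpreb3, a chaperone-like partner of immunoglobulin light chains, measured 9.67, 9.71 and 9.82 in B cells and 4.72, 4.94 and 4.48 in CD4 T cells. The windows are the 250 bases before the annotated start, 5′ to 3′ on the gene's strand, from RefSeq for the GRCm38.p6 build. Capitals mark the octamer ATGCAAAT, which Oct factors and their partner Pou2af1 bind, in Blnk and Vpreb3, and CTTTGAT, a core read by Tcf7 and Lef1, in Trat1 and Cd3d, each on either strand. The Blnk window is chr19:40994222-40994471 (minus strand), with the match starting 130 bases before the start. The Vpreb3 window is chr10:75948050-75948299 (plus strand), with the match 45 bases before it. Those of Trat1 and Cd3d are chr16:48772063-48772312 (minus strand, match 220 bases before) and chr9:44981536-44981785 (plus strand, match 55 bases before).
Blnk: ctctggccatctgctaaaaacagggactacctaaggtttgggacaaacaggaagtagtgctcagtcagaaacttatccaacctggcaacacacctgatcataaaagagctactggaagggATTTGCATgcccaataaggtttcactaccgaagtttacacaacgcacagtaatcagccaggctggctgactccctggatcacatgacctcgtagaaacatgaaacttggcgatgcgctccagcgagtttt
Vpreb3: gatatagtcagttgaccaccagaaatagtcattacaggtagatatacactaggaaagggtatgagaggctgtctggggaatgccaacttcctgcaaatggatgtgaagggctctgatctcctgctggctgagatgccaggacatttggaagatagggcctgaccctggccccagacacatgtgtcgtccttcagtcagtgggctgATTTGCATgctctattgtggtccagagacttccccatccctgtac
Trat1: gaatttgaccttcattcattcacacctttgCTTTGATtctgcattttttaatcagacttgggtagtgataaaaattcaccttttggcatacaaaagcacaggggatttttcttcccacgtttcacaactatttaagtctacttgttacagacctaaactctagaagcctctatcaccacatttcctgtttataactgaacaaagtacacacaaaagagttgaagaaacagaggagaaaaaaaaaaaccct
Cd3d: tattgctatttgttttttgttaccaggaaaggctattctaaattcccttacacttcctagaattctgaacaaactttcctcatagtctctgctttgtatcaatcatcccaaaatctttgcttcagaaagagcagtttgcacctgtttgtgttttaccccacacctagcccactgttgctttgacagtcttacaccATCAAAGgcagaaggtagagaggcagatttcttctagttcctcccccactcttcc

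These matches were uncommon on both sides. On both strands, the octamer stood in 1.6% of 13605 promoters, in 3.15% of the 603 promoters of genes higher in B cells and in 1.51% of the 596 of genes higher in CD4 T cells. Among genes at least 16-fold higher in B cells, 4 of 94 promoters held it, those of Il18, Kctd12, Vpreb3 and Blnk, and 1 of 55 did on the CD4 T cell side. CTTTGAT stood in 3.22% of all promoters, 2.49% of those higher in B cells and 2.85% of those higher in CD4 T cells. At 16-fold or more it stood in 4 of 94 B cell and 2 of 55 CD4 T cell promoters. GAGGAA, an Ets core of the kind that Spi1 and Spib read, stood in 26.0%, 29.9% and 27.3% of the same sets, and at 16-fold or more in 31.9% on the B cell side and 40.0% on the CD4 T cell side. A match is a run of letters and not a measured binding site. Gata3 and its relatives read AGATAA, which stood in 8.7%, 9.29% and 9.73%, and at 16-fold or more in 10.6% and 7.27%.

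The sort markers were present where the labels put them. B cell markers averaged 9.72 to 9.92 in the B cell arrays and 4.54 to 4.81 in the CD4 T cell arrays, and 3 of the 4 measured were called. Cd79a measured 11.07, 11.11 and 11.15 against 4.70, 5.08 and 5.06, whereas Pax5, the factor that commits cells to the B lineage, measured 5.34, 5.02 and 4.56 against 4.02, 4.41 and 4.19 and was not called. Without the 2 arrays that stood apart Pax5 differed by 1.07 and was called. CD4 T cell markers averaged 10.63 to 10.70 in CD4 T cells and 4.27 to 5.20 in B cells. Cd4 itself measured 5.02, 4.55 and 4.67 in B cells and 10.61, 10.24 and 10.59 in CD4 T cells. Lists of CD8 T cells, gamma delta T cells, dendritic cells, neutrophils, platelets, stroma and epithelium had no called gene, out of 2, 1, 6, 8, 5, 6 and 5 measured by limma, and 1, 1, 2, 1, 0, 0 and 1 of these had an unadjusted p under 0.05. The gamma delta list was read by Sox13 alone. Cd8b1 (-0.97) passed towards CD4 T cells with quantile normalization (-1.027) and without B cell replicate 2 (-1.023) or CD4 T cell replicate 1 (-1.067). The plasmacytoid dendritic cell list had 1 of 3 called, Ccr9 (-1.88), which T cells also use, and that call was lost without B cell replicate 2 (adjusted p = 0.066), CD4 T cell replicate 1 (0.0624) or the 2 arrays that stood apart (0.055). The neutrophil call depended on the array: without B cell replicate 2, S100a8 (2.26 in the full set) reached 3.35 (adjusted p = 0.0356) and S100a9 (2.32) 3.37 (0.00915), and without B cell replicate 1, S100a9 reached 2.99 (0.0419) and Ngp (1.60) 2.37 (0.0428). Monocyte and macrophage markers had 2 of 11 called, Adgre1 (2.70) and Spic (2.91), both higher in B cells, while Itgam, Csf1r and C1qb lay under 4.2 in every spleen array. Lyz2 (lysozyme) of the same list was not called and spread widely, at 3.89, 6.10 and 8.79 in B cells and 2.23, 5.91 and 5.54 in CD4 T cells. Cd68 (1.04) was called towards B cells with array weights and when the spleen arrays were fitted alone. The natural killer list had Nkg7 alone called out of 6, at -3.79, a call lost without B cell replicate 1 (adjusted p = 0.0583) or replicate 2 (0.0556), and Ncr1, its defining receptor, measured 2.19 and 2.03 on average. Gata1, a red cell factor also known in other blood lineages, differed by -1.93, with Alas2 at -0.09 and Hba-a1 at -0.08 not called.

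Every measured component of the B cell receptor was higher in B cells, 5 of 5 against 4.63% of all genes, with a median difference of 5.6. Cd79a and Cd79b, the signalling chains, differed by 6.16 ± 0.15 and 5.6 ± 0.24. Cr2, a complement receptor, measured 10.50, 10.36 and 10.41 in B cells and 4.23, 4.10 and 4.08 in CD4 T cells. Cd81, a tetraspanin, was high in both classes, at means of 10.93 and 9.58, and differed by 1.35 ± 0.08. Ighm differed by 3.24, and the light chain segments Iglv1 and Igk-V21 by 7.12 and 5.90, whereas the IgA heavy chain Igha, at -0.18, was not called.

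Of the T cell receptor complex and its coreceptors, 8 of 9 measured genes were higher in CD4 T cells, against 4.52% of all genes, and the median difference was -5.73. Cd3e, Cd247 and Cd28, the last being the main costimulatory receptor, differed by -4.97, -6.38 and -5.82. Cd5 and Cd6, scavenger receptor family regulators of T cell receptor signals, differed by -4.47 and -4.83. Cd2, an adhesion receptor, measured 10.31, 10.25 and 10.31 against 11.15, 11.15 and 11.16 and was not called. The variable segment Trbv13-2 differed by -5.27 and Trav3-3 by -2.99, while Trav13-5 and Trav6-3 were not called (0.52 and -0.98). Trgv1, a gamma chain segment, measured 2.47, 2.73 and 3.22 in B cells and 7.39, 6.99 and 7.18 in CD4 T cells, a difference of -4.38 ± 0.71 (adjusted p = 0.000185).

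In the Src, Syk, Tec, adaptor, protein kinase C and PI3 kinase lists, members were called towards both classes, whereas the phospholipase C gamma, exchange factor and NFAT lists had 1 call each, towards B cells. Among Src family kinases, Blk measured 10.70, 10.63 and 10.57 in B cells and 4.10, 3.63 and 4.42 in CD4 T cells, a difference of 6.59 ± 0.18 (adjusted p = 2.01e-13). Fgr, better known from myeloid cells, was also higher in B cells, at 8.38, 8.31 and 8.32 against 4.26, 4.05 and 3.94. Fyn ran the other way, at 8.16, 8.12 and 8.18 and 10.09, 10.35 and 10.13, so that both classes had signal and CD4 T cells were 4.11-fold higher. Src and Yes1 were not called (0.17 and -0.17), and their levels lay between 3.90 and 4.61 in the 6 arrays.

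The Syk family split completely. Syk measured 7.16, 6.72 and 6.82 in B cells and 3.44, 3.66 and 3.58 in CD4 T cells, a difference of 3.34 ± 0.25 (adjusted p = 2.61e-08). Zap70, its T cell counterpart, measured 3.60, 3.48 and 3.92 and 7.35, 7.46 and 7.42, a difference of -3.74 ± 0.28. Of the Tec kinases, Btk, whose loss blocks B cell development, was 63.5-fold higher in B cells, at 10.38, 10.36 and 10.42 against 4.39, 4.78 and 4.02. Txk differed by -3.80 ± 0.32 towards CD4 T cells. Tec differed by 1.04 and lost its call without B cell replicate 1 (0.951) or CD4 T cell replicate 2 (0.96), and Bmx averaged 3.14 and 3.13 in the groups.

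**Figure D4:**
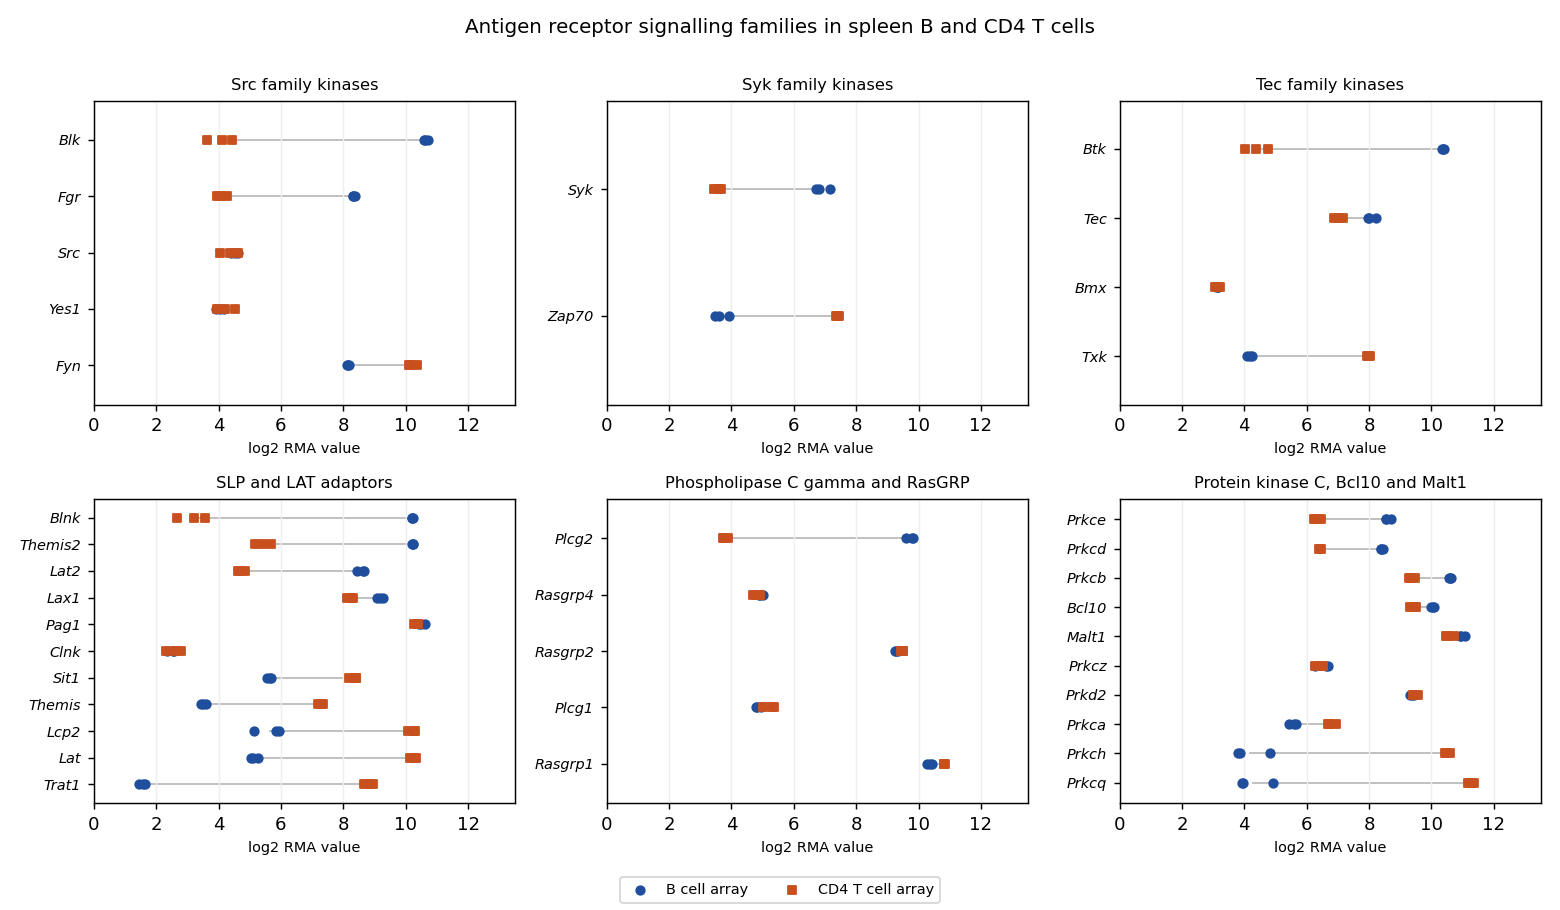
Log2 signal (horizontal axis) of the measured members of 6 antigen receptor signalling families, with a circle for each splenic B cell array, a square for each CD4 T cell array and a grey line between the group means. Blk, Syk, Btk, Blnk and Plcg2 have their B cell arrays to the right, and Fyn, Zap70, Txk, Lcp2, Lat and Prkcq their CD4 T cell arrays.

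Adaptors showed the same division, with 3 of 11 higher in B cells and 5 of 11 higher in CD4 T cells. Blnk measured 10.22, 10.19 and 10.23 in B cells and 3.58, 2.66 and 3.20 in CD4 T cells. Lcp2, which encodes SLP-76 and does the corresponding work in T cells, measured 5.14, 5.95 and 5.85 and 10.08, 10.30 and 10.27, a difference of -4.57 ± 0.57. Lat, the membrane scaffold of T cells, differed by -5.11 ± 0.19, and Lat2, its relative in B cells and mast cells, by 3.87 ± 0.17. Themis, which tunes T cell receptor signals, differed by -3.78, and its homologue Themis2 by 4.81 towards B cells. Sit1, an inhibitory transmembrane adaptor, differed by -2.70. Pag1 and Lax1, membrane adaptors of both lineages, were not called (0.16 and 0.94), and Clnk measured 2.48 and 2.56.

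Of the phospholipase C gamma isoforms, 1 separated the classes. Plcg2 measured 9.61, 9.83 and 9.79 in B cells and 3.72, 3.90 and 3.75 in CD4 T cells, a difference of 5.95 ± 0.14 (adjusted p = 6.14e-14), while Plcg1, the isoform of T cells, measured 4.96, 4.80 and 4.83 against 5.37, 5.30 and 5.01 and was not called. Rasgrp1 and Rasgrp2, which pass diacylglycerol signals to Ras and Rap, were not called (-0.48 and -0.19). Of 10 genes of a list of protein kinase C and D isoforms with Bcl10 and Malt1, 3 were called towards each class. Prkcq measured 3.94, 3.96 and 4.93 against 11.26, 11.37 and 11.18 and Prkch, a second isoform of T cells, differed by -6.34 ± 0.26. Prkca differed by -1.21. Prkcd, which restrains B cell responses to self antigen, and Prkce differed by 1.99 and 2.26 towards B cells. Prkcb, the isoform that feeds NF-kB in B cells, differed by 1.22, and its adjusted p rose to between 0.0664 and 0.0908 when any 1 of the 6 spleen arrays was left out. Bcl10 and Malt1, which act upstream of NF-kB, were not called (0.62 and 0.41).

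The PI3 kinase list joins subunits with adaptors that were entered as B cell adaptors, so subunits and adaptors are not compared. Bank1 and Pik3ap1, adaptors that bring PI3 kinase to the B cell receptor complex, differed by 8.14 ± 0.28 and 5.86 ± 0.14, and Dapp1, which binds the lipid product, by 1.03. On the CD4 T cell side Pik3r5, a regulator of the gamma isoform, differed by -1.83 ± 0.44 and Pik3cb by -1.47. Pik3cd, the delta catalytic subunit, differed by -1.35, a call lost without B cell replicate 1 (adjusted p = 0.0894), B cell replicate 3 (0.0616), CD4 T cell replicate 1 (0.0575) or CD4 T cell replicate 2 (0.0752). The other 6 of the 12 measured members, Pik3ca, Pik3cg, Pik3r1, Pik3r2, Pik3r3 and Pik3r6, had differences from -0.58 to 0.98, and Pik3r6, the highest, passed without B cell replicate 3 (1.06) or CD4 T cell replicate 1 (1.03). Among exchange factors, Vav2 was higher in B cells by 1.88 ± 0.08, and Vav1, Vav3, Dock2, Dock8, Dock10 and Dock11 were not called. NFAT and calcium entry genes had 1 of 12 called, the inositol trisphosphate receptor Itpr3 at 1.11, near the share of all genes (9.15%). The NFAT genes Nfatc1, Nfatc2 and Nfatc3 differed by 0.31, 0.15 and -0.11.

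Of 15 regulators of proximal T cell receptor signals, 6 were higher in CD4 T cells and 1 was higher in B cells. Skap1 and Fyb, which couple the T cell receptor to integrins, differed by -6.02 ± 0.47 and -6.02 ± 0.79. Sla2, Dok2 and Ubash3a, negative regulators of proximal kinases, differed by -3.46, -2.89 and -2.68. Dok3, a Dok family adaptor that inhibits B cell receptor calcium signals, measured 9.35, 9.48 and 9.25 in B cells and 5.53, 5.50 and 5.48 in CD4 T cells. The ubiquitin ligases Cblb and Cbl were not called (0.06 and -0.45).

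Transcription factors of each lineage followed the sort. Of 12 B lineage factors 10 were higher in B cells, with a median difference of 3.29. Ebf1, which opens the B cell programme, measured 9.21, 9.19 and 9.24 in B cells and 2.78, 3.43 and 2.79 in CD4 T cells, and Spib, an Ets factor of B cells, measured 11.35, 11.40 and 11.45 and 5.01, 4.22 and 4.36. Mef2c, Bcl11a and Irf8 differed by 6.90, 5.37 and 4.45, and Tcf4, the E protein E2-2, by 4.18. Smaller differences were measured for Pou2af1, the coactivator of octamer-binding factors (2.23), and for Bcl6, the repressor of germinal centre cells (1.29). Bach2, which holds back plasma cell differentiation, measured 10.31, 10.14 and 10.19 in B cells and 9.81, 9.79 and 9.82 in CD4 T cells and was not called.

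Of 14 T lineage factors 8 were higher in CD4 T cells, with a median of -2.52. Bcl11b averaged 4.15 in the B cell arrays and 11.11 in the CD4 T cell arrays, with no overlap. Gata3, needed for CD4 commitment and Th2 cells, differed by -5.21 ± 0.24, Rora, a nuclear receptor of helper cells, by -5.08 ± 0.33, and Lef1, a partner of Tcf7 in naive T cells, by -3.68 ± 0.23. Notch1 and Id2, an inhibitor of E proteins, differed by -2.15 and -3.22. Ets1, Runx3, Satb1, Id3, Zbtb7b and Tbx21 were not called. Satb1, a chromatin organiser, measured 9.53, 9.40 and 9.58 against 10.35, 10.50 and 10.39.

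In families shared by both lineages, from 1 of 9 (forkhead) to 3 of 5 (Ikaros) members were called, against 9.15% of all genes. The forkhead share, 11.1%, lies near that of all genes. Among 15 Ets factors Spib, Spi1 (2.40) and Spic (2.91) were higher in B cells, and the other 12 had differences from -0.62 to 0.30 (Etv3 and Fli1). Among Ikaros factors Ikzf2 (Helios) and Ikzf4 (Eos), both known from regulatory T cells, differed by -6.62 ± 0.21 and -4.90 ± 0.25. Ikzf1 and Ikzf5 were not called, and Ikzf3 (Aiolos) was higher in B cells by 1.75, a call lost without B cell replicate 1 (adjusted p = 0.0617), B cell replicate 2 (0.0563) or CD4 T cell replicate 3 (0.0793). Interferon regulatory factors Irf8, Irf5 (3.13) and Irf4 (1.91) were higher in B cells, the call of Irf4 being lost without the 2 arrays that stood apart (adjusted p = 0.0543). Irf7, which drives type I interferon genes, was called towards CD4 T cells at the fold minimum (-1.0), a call lost with quantile normalization (-0.996) and without B cell replicate 2 (-0.989), B cell replicate 3 (-0.987) or CD4 T cell replicate 1 (-0.956). Irf1, Irf2, Irf3 and Irf9 lay within 0.53 of 0 in either direction. Foxp3 was the 1 called gene of 9 forkhead factors, and Foxo1, Foxo3 and Foxp1 differed by -0.10, -0.08 and 0.21. Of 8 Kruppel-like factors, Klf12 (2.21) was among 3 higher in B cells and Klf10 (-1.19), a target of TGF-beta, was the 1 higher in CD4 T cells. Klf2, the factor of resting lymphocytes, measured 8.10 and 8.52 on average and was not called.

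All 16 measured B cell surface receptors were higher in B cells, with a median difference of 5.6. Fcer2a (CD23), the low-affinity IgE receptor of follicular B cells, measured 9.82, 10.04 and 9.80 in B cells and 3.10, 3.72 and 2.87 in CD4 T cells. Cd180, the partner of Ly86, and Cd22, an inhibitory sialic acid receptor, differed by 6.0 ± 0.27 and 5.94 ± 0.28. Cd40, which receives T cell help, averaged 11.03 against 5.81 (5.22 ± 0.12). The BAFF receptor Tnfrsf13c was high in B cells (11.7 on average) and also measured 7.32, 7.39 and 7.46 in CD4 T cells, and Tnfrsf13b (TACI) differed by 2.13.

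MHC class II genes followed, 13 of 14 higher in B cells with a median of 5.39. Cd74, the invariant chain, measured 12.30, 12.28 and 12.39 in B cells and 6.14, 6.43 and 6.46 in CD4 T cells. H2-Ab1 and H2-Eb1, class II beta chains, differed by 6.6 and 6.85, H2-DMb2, a peptide exchange factor, by 6.84, and Ciita, the class II transactivator, by 4.81. The exception in size was H2-Ea, the I-E alpha chain, which NOD mice are known not to transcribe: it measured 5.72, 5.46 and 5.48 in B cells and 4.37, 4.45 and 4.46 in CD4 T cells, 2.19-fold, against 115-fold for its partner chain H2-Eb1. Averaging its probe sets gave 0.801 and ended that call. Ctss, the protease that trims the invariant chain, measured 11.23 and 10.60 on average and was not called. Class I presentation had 1 of 10 genes called, near the share of all genes (9.15%). That gene was the class I transactivator Nlrc5 (-1.39, higher in CD4 T cells), and Tapbp, Psmb8 and Psmb9 differed by -0.05, -0.13 and -0.32.

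Called genes of the Fc receptor, complement and Toll-like receptor lists were higher in B cells in the fit of all 17 arrays. Fcgr3, an activating IgG receptor (-1.29), was called towards CD4 T cells when the spleen arrays were fitted alone and with array weights. Of 10 Fc receptor genes 5 were higher in B cells, among them Fcgr2b, the inhibitory IgG receptor, at 9.91, 9.85 and 9.86 against 3.60, 3.69 and 3.73, and Fcrla, an intracellular Fc receptor relative, at 6.28 ± 0.15. Complement genes had 4 of 9 higher in B cells, including the decay factor Cd55 (2.02) and properdin, Cfp (2.20). Toll-like receptors and partners had 8 of 19, with a list median of 0.88. Tlr3, which reads double-stranded RNA, measured 9.0, 8.97 and 8.98 in B cells and 3.83, 4.31 and 3.86 in CD4 T cells. Irak3, an inhibitory kinase of the pathway, and Unc93b1, which carries nucleic acid sensors to endosomes, differed by 4.2 and 3.20, and Tlr7 by 2.77. Tlr9 averaged 4.65 and 4.58 in the groups and was not called, and Myd88, the shared adaptor, differed by -0.47. Cybb, the catalytic unit of the NADPH oxidase, differed by 4.23 ± 0.60.

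Genes of B cell subsets differed in how far they separated the classes. Marginal zone genes had 4 of 8 higher in B cells. S1pr3, a sphingosine phosphate receptor of marginal zone B cells, measured 8.91, 8.68 and 8.70 in B cells and 3.09, 2.72 and 3.23 in CD4 T cells, and Plac8 differed by 5.88 ± 0.21, whereas Notch2 and Dtx1, the receptor and a modifier of the marginal zone fate, were not called (-0.12 and -0.07). Immature B cell genes had 3 of 9, Vpreb3, Cd93 (2.34) and Rag1 (1.53), and Rag1 averaged 4.6 in B cells. Germinal centre genes had 2 of 8 higher in B cells, Bcl6 and Rgs13 (2.5, with both means under 4.71), and Fas, a death receptor, was called towards CD4 T cells with a difference of -2.33 ± 0.12.

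Plasma cell genes had 7 of 9 higher in B cells, with a median of 1.40, and 5 of 9 without the 2 arrays that stood apart. Jchain, which joins IgM and IgA multimers, was high in all B cell arrays (11.22, 11.16 and 11.19) and spread widely over the CD4 T cell arrays (4.26, 5.6 and 6.85). Ell2, an elongation factor of antibody-secreting cells, differed by 3.02 ± 0.22 and Xbp1, the secretory pathway regulator, by 1.35 ± 0.12. Prdm1, the master regulator of plasma cells, measured 6.19, 5.34 and 5.73 against 6.41, 6.19 and 6.37 and was not called. Of 15 genes of the secretory pathway, 3 were higher in B cells, including Atf6 (2.46), a sensor of unfolded protein, and the chaperone Hspa5 differed by 0.38 and was not called. B1 cell genes went both ways, with 3 of 9 higher in B cells, such as Bhlhe40 (2.61), and 4 of 9 higher in CD4 T cells, Cd5 (-4.47), Ctla4 (-3.50), Anxa2 (-2.98) and Spn (-1.44), each also known from T cells.

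On the T cell side, regulatory T cell genes had 9 of 11 higher in CD4 T cells, with a median of -3.26. Foxp3, their defining factor, measured 5.30, 5.53 and 5.53 in B cells and 8.45, 8.22 and 8.39 in CD4 T cells, a difference of -2.90 ± 0.11 (adjusted p = 9.3e-12). Ikzf2 measured 2.98, 2.99 and 3.20 and 9.45, 9.90 and 9.67. Il2ra, the IL-2 receptor alpha chain, Nrp1, a semaphorin receptor, and Ctla4, an inhibitory receptor, differed by -3.26 ± 0.56, -4.36 ± 0.13 and -3.50 ± 0.30. Tnfrsf18 (GITR) measured 8.51, 8.62 and 8.62 in B cells and 9.68, 9.52 and 9.48 in CD4 T cells and was not called. These arrays hold all CD4 T cells, and the share of regulatory cells among them was not measured.

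Effector and memory genes had 11 of 20 higher in CD4 T cells, with 8 of 20 without the 2 arrays that stood apart and 14 of 20 when the spleen arrays were fitted alone. Il18r1, the IL-18 receptor of Th1 cells, measured 4.09, 3.0 and 4.98 in B cells and 10.18, 9.91 and 10.02 in CD4 T cells. S100a4, a calcium-binding protein of memory T cells, measured 4.84, 4.36 and 6.32 and 11.05, 11.10 and 11.13, with the highest B cell value in replicate 3. Ccr2 and Cxcr3, chemokine receptors of effector cells, differed by -3.84 ± 0.82 and -3.30 ± 0.64, and Ccl5, a chemokine, by -2.76 ± 0.60. The cytokine genes Ifng, Il4 and Il17a were not called, with CD4 T cell means of 5.58, 4.30 and 1.90 (Il4 passed at -1.02 without CD4 T cell replicate 2), and neither were Tbx21 (-1.53) and Prf1 (-0.51). Naive T cell genes had 3 of 7 called, Lef1, Igfbp4 (-3.15) and Actn1 (-3.93), and S1pr1, Klf2 and Foxp1, which B cells also use, were not called.

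Follicular helper genes divided between the classes, 5 of 14 higher in CD4 T cells and 4 of 14 higher in B cells. Icos, a costimulatory receptor, and Maf, a factor of helper cells, differed by -4.78 ± 0.31 and -2.75 ± 0.19, and Pdcd1 (PD-1) by -3.42 ± 0.20. Il21, the helper cytokine, differed by -1.89, with both means under 4.71. Cxcr5, which guides cells to follicles, was higher in B cells, at 9.01, 9.11 and 9.21 against 5.34, 5.38 and 5.04, and Btla and Cd200 were also higher in B cells (1.5 and 1.15).

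Pairs of contact molecules lay on opposite sides in several cases. Icosl was higher in B cells (11.26, 11.30 and 11.27 against 6.21, 6.08 and 6.33) and its receptor Icos in CD4 T cells (4.33, 4.37 and 4.45 against 9.17, 9.26 and 9.06). Cd40 differed by 5.22 and its ligand Cd40lg by -1.22. Of 15 costimulatory receptors of the T cell side 9 were higher in CD4 T cells and 1, Btla, in B cells, with a median of -2.30. Cd27 and Tnfrsf9 (4-1BB), costimulatory receptors of the TNF receptor family, differed by -5.48 ± 0.67 and -3.53 ± 0.30. Lag3 and Havcr2, inhibitory receptors, were not called (-0.77 and -0.18). Of 13 ligands and partners of the B cell side 4 were higher in B cells, and 3 were higher in CD4 T cells, led by Vsir (VISTA, -2.84). Among SLAM genes Sh2d1a measured 2.55, 2.36 and 3.49 in B cells and 9.36, 9.66 and 9.58 in CD4 T cells, whereas the receptors Slamf1, Ly9, Cd84 and Slamf6 lay from -0.59 to 0.75 and were not called.

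Receptors of the common gamma chain family had 2 of 6 higher in CD4 T cells, and other cytokine receptors had 3 of 24 higher in B cells and 5 of 24 higher in CD4 T cells (4 of 24 without any single spleen array). Il2rb, the shared IL-2 and IL-15 receptor chain, measured 3.20, 3.64 and 4.82 in B cells and 9.23, 9.49 and 9.42 in CD4 T cells, and Il4ra and Il21r, known in both lineages, were not called (0.04 and -0.13). Il6ra and Il6st, the IL-6 receptor pair, differed by -3.48 ± 0.26 and -2.44 ± 0.31, and Tgfbr3, a TGF-beta coreceptor, by -5.55 ± 0.14. Csf2rb, the shared beta chain, and Il5ra were higher in B cells, by 5.71 ± 0.29 and 3.76 ± 0.18, and Il10ra by 1.84. Of 9 TNF ligands 6 were higher in CD4 T cells, among them Tnfsf11 (RANKL, -4.33), Tnfsf14 (LIGHT, -2.17) and Tnfsf8 (CD30 ligand, -2.11). The lymphotoxins Lta and Ltb were not called (0.64 and 0.19).

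Of 18 chemokine receptors 5 had their higher level in B cells, and 6 were higher in CD4 T cells. Ackr2 and Ackr3, scavenging receptors, differed by 5.32 ± 0.21 and 4.90 ± 0.22 and Ccr6, which follows CCL20, by 3.13 ± 0.11, beside Cxcr5 (3.86 ± 0.24). Cxcr3 measured 5.61, 6.2 and 5.45 in B cells and 8.75, 9.36 and 9.06 in CD4 T cells, and Cxcr6 differed by -2.30. S1pr3 was the 1 called gene of 9 sphingosine phosphate and egress genes, near the share of all genes (9.15%). S1pr1, the exit receptor, measured 7.66, 7.27 and 7.65 against 7.83, 8.29 and 8.40. Integrins had 5 of 20 higher in CD4 T cells and 1, the ligand Icam1 (1.41), higher in B cells. Itga6, a laminin receptor chain, differed by -2.48 ± 0.10 and Itgb1 by -1.95 ± 0.16, and Itga4 and Itgav were not called (-0.13 and -0.09). Rgs proteins, which shorten chemokine signals, had 3 of 12 on each side, with Rgs1 (-3.50) and Rgs10 (-2.26) higher in CD4 T cells and Rgs2 (1.54) higher in B cells.

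Of 14 measured genes in a list of STAT factors, Jak kinases and cytokine feedback genes, 3 were higher in CD4 T cells, against 4.52% of all genes. All 3 were feedback genes, of which the list has 4, and Socs1 was not called (-0.29). Cish, an inhibitor induced by STAT5, measured 3.97, 4.03 and 3.89 in B cells and 8.09, 8.07 and 8.10 in CD4 T cells, and Socs2 and Socs3 differed by -3.78 ± 0.23 and -2.45 ± 0.13. The 10 measured STAT and Jak genes did not pass, with differences from -0.99 (Stat5b, which passed the 2-fold minimum without B cell replicate 1, B cell replicate 3 or CD4 T cell replicate 1, at -1.01, -1.0 and -1.05) to 0.85 (Stat2). NF-kB genes had 4 of 18 higher in B cells, against 4.63% of all genes. These included the subunits Rel (1.79) and Nfkb2 (1.77) and the inhibitor Nfkbie (1.58). Ikbke, a kinase of the interferon pathway, was called towards CD4 T cells with a difference of -3.51 ± 0.14. Immediate early genes, which also respond to handling of cells, had 1 of 20 higher in B cells, Jun (2.92 ± 0.22), and 2 of 20 higher in CD4 T cells, while Fos, Egr1 and Nr4a1 were not called (-0.94, -0.69 and -0.43). Fos passed without B cell replicate 3 (-1.18) or CD4 T cell replicate 2 (-1.01).

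Type I interferon response genes had 7 of 17 higher in CD4 T cells and 1 of 17 higher in B cells, against 4.52% and 4.63% of all genes. Ifit1, an RNA-binding effector, measured 3.39, 3.73 and 4.45 in B cells and 6.37, 6.55 and 7.43 in CD4 T cells. Oas3, Ifit2 and Zbp1, nucleic acid sensors and effectors, differed by -2.26 ± 0.46, -2.24 ± 0.50 and -2.07 ± 0.36. Others of the same response were not called, among them Ifit3 (-0.57), Rsad2 (-0.35) and Mx1 (1.38). Leaving out single arrays left 5 or 6 of 17 higher in CD4 T cells.

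Lists of programmes common to both classes differed in how many members were called, read against 9.15% of all genes in either direction. Cell division genes had 1 of 27 called, Aurkb (1.41, higher in B cells), with a median of -0.12, and Mki67 measured 7.84, 8.19 and 7.43 in B cells and 7.77, 8.15 and 7.88 in CD4 T cells. Glycolysis had 1 of 13 on each side, Hk2 (1.27) and Pfkp (-1.62), and Gapdh differed by -0.07. Cholesterol synthesis and uptake had 1 of 13 called, Fdps (-1.26), with a list median of -0.72 against 0.002 for all genes. Without the fold minimum 11 of the 13 had an adjusted p under 0.05. Over all 17097 genes, 1906 higher in B cells and 1937 higher in CD4 T cells then passed. None of 8 GIMAP GTPases, which support lymphocyte survival, and none of 11 genes shared by leukocytes was called by limma (2 and 0 had an unadjusted p under 0.05), and Cd53 and Coro1a differed by -0.01 and 0.01. Fitted alone, the spleen arrays gave 1 of those 11 in each direction, Cd37 and Itgb2. Both were also called with array weights (1.355 and -1.442), and Cd37 when its probe sets were averaged (1.92). Bcl2 family genes had 2 of 14 higher in B cells, Bid (2.21) and Bcl2l2 (1.56), and Bcl2 and Mcl1 were not called (-0.58 and 0.25). The purine pathway had 1 of 11 higher in B cells and 2 of 11 higher in CD4 T cells. Those 2 were Nt5e (CD73) and P2rx7, an ATP-gated channel, with differences of -3.24 ± 0.22 and -3.93 ± 0.18. Lysosomal proteases and inhibitors had 3 of 13 higher in B cells and 2 of 13 higher in CD4 T cells. Ctsh differed by 6.90 ± 0.19 towards B cells. Ctsw, of cytotoxic and T cells, differed by -4.76 ± 1.0 towards CD4 T cells, while Ctsb was not called (-0.08).

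The same cell comparison was available in the lacrimal gland, from 4 B cell and 4 CD4 T cell arrays that share no array with the spleen. In gland 638 genes were higher in B cells, and 1021 were higher in CD4 T cells, 9.7% of all genes together. Of the spleen calls, 486 genes higher in B cells (61.4% of the spleen's and 76.2% of the gland's) and 534 higher in CD4 T cells (69.1% and 52.3%) were called the same way in gland, and 12 were called in opposite directions. The test of the difference between tissues called 661 genes (3.87%) as more positive in spleen, that is, shifted towards B cells there, and 208 (1.22%) as more negative. Centring the arrays changed this split to 551 and 308. Of the 1565 genes called in spleen, 460 (29.4%) also differed between the tissues, against 5.08% of all genes. Those 1565 were chosen by the spleen difference, which is part of the difference tested, and this choice can raise the 29.4%.

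**Figure D5:**
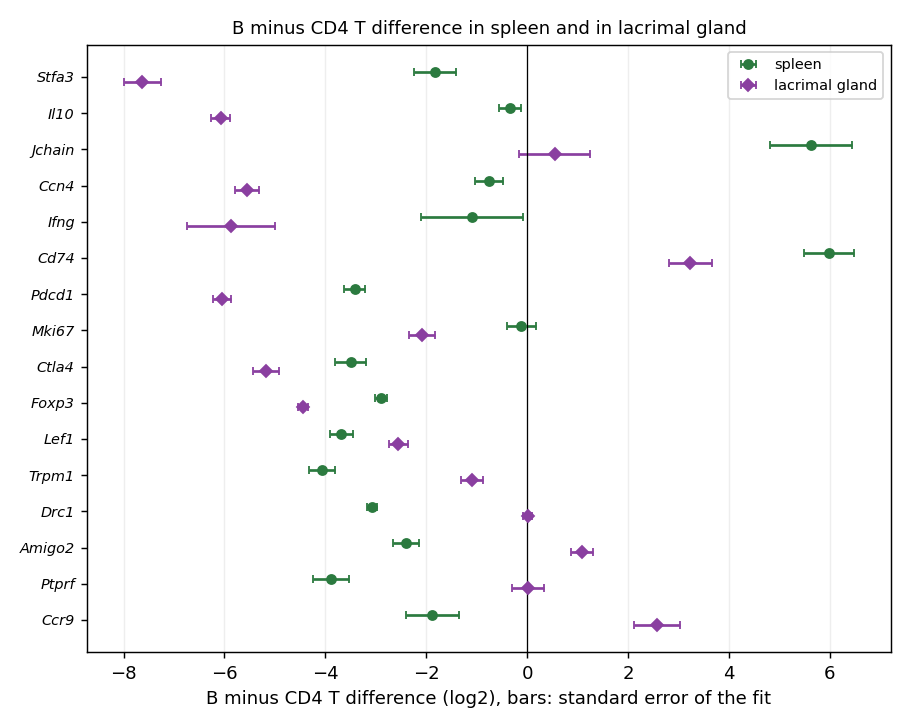
Difference between B cells and CD4 T cells (log2, B minus CD4 T, bars: standard error of the fit) in spleen (circles) and in lacrimal gland (diamonds) for 16 genes called in the test of the difference between tissues. For Mki67 the spleen difference lies near 0 and the gland difference at -2.09, and for Ccr9 they lie at -1.88 and 2.57.

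In the test between tissues Blk, Syk and Zap70 were not called, and their gland differences were 5.89, 2.42 and -4.86. Genes of cell division did differ between tissues. In gland 13 of 27 were higher in CD4 T cells than in B cells, against 5.97% of all genes. The difference was more positive in spleen than in gland for 15 of 27, against 3.87%. For Mki67, a marker of dividing cells, the difference was -0.12 in spleen and -2.09 in gland (test of the difference 1.97, adjusted p = 0.00293). Mki67 measured 5.92, 6.06, 6.22 and 6.85 in gland B cells and 7.84, 8.19 and 7.43 in splenic B cells. In CD4 T cells it measured 8.42, 8.14, 8.34 and 8.49 in gland and 7.77, 8.15 and 7.88 in spleen. Genes of regulatory T cells (7 of 11), costimulatory receptors (8 of 15) and follicular helper cells (6 of 14) were more positive in spleen, that is, less shifted to CD4 T cells there. Foxp3 differed by -2.90 in spleen and -4.44 in gland (adjusted p of the difference 3.65e-06), and Pdcd1 by -3.42 and -6.05 (6.8e-06). Naive T cell genes ran the other way, with 5 of 7 more negative in spleen. Gland suspensions were digested with enzymes and came from an inflamed tissue, and by the design text they also came from older mice (16 weeks), so tissue, digestion, inflammation and, by that text, age cannot be told apart here.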

How the data were processed

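Expression arrays measured 6 spleen and 11 lacrimal gland samples of NOD males. The deposited values are log2 signals that the authors summarised with RMA in Partek, per the submitters' processing notes; RMA subtracts background and equalises the distribution over arrays, so a global shift between cell types cannot be measured, and no versions are given. The deposited table has 45141 probe sets; 104 control probe sets were left out, 28898 have exactly 1 gene in the platform annotation (28689 matched by gene identifier), 551 have several and 15588 are not listed and stay unnamed. Each of 17097 genes was read by its probe set of highest mean over all arrays, which can choose between probe sets of unlike response. Genes of the lists without a named probe set were not analysed here.

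A mean was fitted for each of the 5 groups with limma 3.58.1 in R 4.3.3 (12 residual and 3.17 prior degrees of freedom), without covariates. Genes were called at 2-fold or more when p, adjusted over all of them by Benjamini-Hochberg, was under 0.05, and values after ± are the fit's standard errors (median 0.13). All 17 arrays share 1 estimate of spread for each gene. For Cd3d, with a standard error of 0.849, the standard deviation was 0.687 and 0.012 in splenic B and CD4 T cells. It was 2.724 in the epithelial arrays. The members, the 72 lists (671 of 756 genes measured) and the rules were chosen with earlier results of these data known, and lists are described by counts and medians with no set test. Named genes are the sort and cell type markers, the 10 largest non-overlapping differences each way (antigen receptor segments and unnamed gene models left out, with the brighter group over the overall median), up to 4 called members of a list each way, all members of the signalling families, members needed to say what was not called, the 5 largest differences between tissues each way, and further members named for their known role after their values were seen. In simulated data for the spleen comparison (17097 genes, 200 shifted), 43% of shifts of 1 log2 unit, 96.5% of 1.5, 97.5% of 2 and 99% of 3 were called, with at most 1 false call. The simulated noise was normal, with 1 spread per gene for all groups and no array standing apart. These rates may therefore not carry over to the measured arrays. The number of arrays, 3 against 3, limits the precision. Figures were drawn with matplotlib 3.10.9. Replicate numbers shared by the groups did not mark deviations in common: same-numbered B and CD4 T cell spleen arrays correlated at -0.027, -0.054 and 0.067, so no pairing was used. Alternatives changed the fold minimum, the probe set rule, the filter on dim genes, centring, quantile normalization, moderation, array weights, the arrays fitted, a block and each array in turn. Promoters came from RefSeq tables for GRCm38.p6, matched by symbol.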

Additional observations from a re-analysis of the deposited data

Results flagged for a closer look

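The difference between B cells and CD4 T cells itself differed between spleen and lacrimal gland for the genes below, by limma's test of that difference with Benjamini-Hochberg adjustment over 17097 genes. The first 10 have the largest values in each direction by the rule for named genes, and Lef1, Foxp3, Ctla4, Pdcd1, Cd74 and Mki67 were added after their values had been seen.

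Shifted towards B cells in spleen were Stfa3, a cysteine protease inhibitor (5.80, adjusted p = 3.87e-06), and Il10, a regulatory cytokine (5.74, 2.67e-09). Gland CD4 T cells were the high group for both: Stfa3 measured 11.21, 11.25, 11.36 and 11.33 there and 5.64, 6.35 and 5.33 in splenic CD4 T cells, and Il10 measured 9.47, 9.28, 9.26 and 9.36 and 1.96, 2.54 and 2.61. Jchain (5.08, 0.0053) measured 9.25, 8.32, 9.54 and 9.26 in gland CD4 T cells, 9.86, 9.57, 9.68 and 9.43 in gland B cells and 7.0, 2.90 and 3.09 in gland epithelial cells. Ccn4, a matricellular protein (4.80, 3.75e-07), measured 7.79, 9.03, 8.15 and 7.99 in gland CD4 T cells and 6.73, 7.32 and 7.79 in epithelial cells. Ifng, the Th1 cytokine (4.78, 0.0317), measured 10.59, 10.31, 10.54 and 10.49 in gland and 5.09, 5.78 and 5.87 in splenic CD4 T cells, and its call was lost with the replicate number as a block (adjusted p = 0.0509). It was also lost, at adjusted p from 0.0518 to 0.0771, without any 1 of spleen B cell replicates 2 and 3, spleen CD4 T cell replicates 1, 2 and 3, gland B cell replicates 2 and 3, and gland CD4 T cell replicates 1, 3 and 4. The epithelial arrays, which share the estimate of spread, measured 8.26, 2.82 and 2.35 for Ifng. Its standard deviation was 3.283 there and from 0.118 to 0.505 in the lymphocyte groups. Pdcd1 differed between tissues by 2.63 (6.8e-06), Mki67 by 1.97 (0.00293) and Foxp3 by 1.54 (3.65e-06). Cd74 (2.76, 0.0115) and Ctla4 (1.68, 0.0116) lost their calls without the 2 spleen arrays that stood apart (0.0564 and 0.064).

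Shifted towards CD4 T cells in spleen were Ccr9, a gut-homing receptor (-4.45, 0.000486), Ptprf, a receptor phosphatase (-3.91, 4.87e-05), Amigo2, an adhesion protein (-3.48, 4.37e-06), Drc1, a ciliary protein (-3.09, 6.79e-10), Trpm1, a cation channel (-2.97, 2.02e-05), and Lef1 (-1.13, 0.0245). Ccr9 measured 8.88, 8.54, 5.87 and 7.34 in gland B cells and 5.71, 5.18 and 5.71 in splenic B cells. Ptprf measured 7.3, 6.87, 5.5 and 6.06 in gland B cells and 2.8, 2.46 and 3.65 in splenic B cells. In CD4 T cells Ptprf measured 6.57, 6.16, 6.36 and 6.53 in gland and 6.74, 7.12 and 6.71 in spleen. Gland epithelial cells had Ptprf at 10.45, 10.7 and 10.77. The call of Lef1 was lost without spleen CD4 T cell replicate 2 (-0.94, adjusted p = 0.076) and without B cell replicate 1 (0.0547), B cell replicate 2 (0.0566), gland CD4 T cell replicate 2 (-0.95) or gland CD4 T cell replicate 3 (0.0531). Gland B cell replicate 3 stood apart for Amigo2, at 9.39 against 8.26, 8.23 and 8.40 in the other gland B cell arrays, the only one of 32 groups of 4 arrays tested, where chance gives about 1 in 20. The causes of these differences were not tested.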

How the results depend on the processing

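Of 683 listed and named genes, 258 were called in spleen. Over 15 alternatives with the 2-fold minimum, 39 lost their call in at least 1, 219 lost it in none in which they were tested, and 0 reversed. A gene removed by the filter on dim genes was not tested in that alternative and was not counted as lost. Without a fold minimum 1906 and 1937 genes were called higher in B cells and CD4 T cells, and 1120 and 611 as more positive and more negative in spleen than in gland; with a 4-fold minimum these were 374, 331, 202 and 33. Testing all probe sets gave 1203, 1184, 934 and 338 probe sets, which are 872, 860, 757 and 271 genes. Leaving out each array in turn gave 781 to 806 calls higher in B cells, 752 to 766 higher in CD4 T cells, 609 to 672 more positive and 191 to 244 more negative in spleen. With the replicate number as a block, the calls were 791, 768, 638 and 202, and the block ended no other call named here than that of Ifng between tissues. Without the 2 spleen arrays that stood apart they were 767, 746, 583 and 194. The other settings gave 730 to 805 genes higher in B cells and 701 to 802 higher in CD4 T cells. Averaging a gene's probe sets ended calls that included Prkca (-0.96), Pik3cd (-0.94), Dapp1 (0.97), Cd93 (0.83) and Bcl2l2 (0.44). Genes that gained a call by averaging included Satb1 (-1.48), Ctsc (1.64), Cd37 (1.92) and Tlr4 (2.493). Quantile normalization ended calls that included Dapp1 (0.98) and Tec (0.999). Fitting the spleen arrays alone gave calls for Tbx21 (adjusted p = 0.000772), Mx1 (0.00482) and Ifng (0.0185). The fit shares its spread with epithelial arrays, and the files give no detection limits, so signals near the low end have no known floor.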

Other observations

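Single members of some gene groups outside the lists above were also called, against 9.15% of all genes in either direction; the groups were chosen after their values had been seen, so their counts carry no test of the group. Of 9 measured kynurenine pathway genes, which break down tryptophan, 3 were higher in B cells. Kmo, the kynurenine hydroxylase, measured 9.98, 10.24 and 10.20 in B cells and 3.97, 4.2 and 3.80 in CD4 T cells, and Kynu and Haao, which act after it, differed by 5.66 ± 0.19 and 5.99 ± 0.23 (limma, Benjamini-Hochberg adjusted p = 1.92e-12 and 8.02e-12). Scd1 was the 1 of 8 fatty acid synthesis genes higher in B cells, while Elovl6, an elongase, and Fads1, a desaturase, were higher in CD4 T cells (-1.69 ± 0.23 and -1.88 ± 0.18).

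Lmo2 and Lyl1, known as partners in blood stem cells, and Hhex, a homeobox factor, were higher in B cells. Lmo2 measured 10.39, 10.33 and 10.39 in B cells and 4.74, 4.57 and 4.94 in CD4 T cells, Lyl1 differed by 5.70 ± 0.26 and Hhex by 6.86 ± 0.24, whereas Tal1, Gata2, Meis1, Runx1 and Ldb1 were not called. Of 12 Wnt pathway genes 3 were higher in CD4 T cells. Axin2, a feedback inhibitor induced by Wnt signals, measured 4.29, 4.00 and 3.97 in B cells and 9.43, 9.50 and 9.24 in CD4 T cells, and Sfrp2, a secreted antagonist, and Prickle1, of planar polarity, differed by -4.48 ± 0.24 and -4.80 ± 0.20. Tcf7l2, a factor of the Tcf family, was higher in B cells (2.05 ± 0.32).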
